A study of Homo sapiens with 8 samples.

Results

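The myeloid granule and differentiation genes described here are MPO, PRTN3, ELANE, AZU1, CTSG, MS4A3, ITGAM, CEBPA, CEBPE and SPI1, in cultured cells of the line KBM7. They were taken by name, as all probe sets whose platform annotation names 1 of these genes and no other, which gave 13 probe sets for 10 genes of the 18132 genes named on the array. In KBM7 most of this programme lay at background. ELANE, AZU1, CTSG, CEBPE and SPI1 stayed in the background range on all 8 arrays. The line with a gene trap in JAK2 had a higher signal than wild type (WT) for MPO (by 0.78 on the log2 scale) and for PRTN3 (by at least 0.85), and a 3.86-fold lower signal for MS4A3. In the unstimulated line with a gene trap in TNFRSF1A these 3 genes lay within 0.35 of the WT array of its experiment, PRTN3 with both readings at background. Against the unstimulated WT array of the other experiment MPO was lower by at least 0.50 and MS4A3 higher by 0.46. ITGAM was lower in both mutants, by at least 1.05 and 0.37, and CEBPA was higher in both, by 0.69 and 1.01.

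Neutrophil precursors make the azurophil (primary) granule in a single window of their development, the promyelocyte stage. They fill it with myeloperoxidase (MPO), with the serine proteases neutrophil elastase (ELANE), proteinase 3 (PRTN3) and cathepsin G (CTSG), and with the inactive protease relative azurocidin (AZU1). The transcription factors C/EBP-alpha (CEBPA) and PU.1 (SPI1) act together with MYB on the promoters of these genes, C/EBP-epsilon (CEBPE) takes over for the later secondary granule, and CD11b (ITGAM) appears on the surface as the cells mature. MS4A3 is a membrane protein of granulocyte precursors and basophils. It is grouped with the granule genes below for its cell type and not as granule content.

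KBM7 is a chronic myeloid leukaemia line with a nearly haploid karyotype, so that 1 gene-trap insertion can disable a gene. Each mutant genotype was represented by 1 line, and the labels do not say how many clones it came from. The IFN-gamma experiment held unstimulated WT cells (replicate 1), WT cells with IFN-gamma at 100 ng/ml for 6 hours, and the JAK2 mutant without and with the same treatment. The TNF-alpha experiment held unstimulated WT cells (replicate 2), WT cells with TNF-alpha at 10 ng/ml for 6 hours, and the TNFRSF1A mutant without and with that treatment. JAK2 is a kinase of the IFN-gamma receptor and of the receptors for several myeloid growth factors, and TNFRSF1A encodes the main TNF-alpha receptor. Each of the 8 samples was read on 1 Affymetrix PrimeView array, so only unstimulated WT had more than 1 array. Precision is limited by this small number of arrays.

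Levels are log2 of the deposited normalised intensity, and differences are those of 2 arrays on the same scale, over 11529 genes that reached a log2 level of 6 on at least 1 array. A gene was called at 2-fold, with no p-value. Single differences are read against a spread of 0.38, the SD over genes of the difference between both unstimulated WT arrays. The background range of an array ends at the upper quartile of its 23 background probe sets, which lay between 5.76 and 6.04. Where 1 of 2 values lay in it, the difference is given as at least the distance to that limit. The median intensity per array was 63.9 to 66.9, and the ratio of the 3′ to the 5′ probe sets of actin, a reading of RNA length, was 5.74 and 6.47 on the 2 JAK2 mutant arrays and 3.27 to 5.53 on the other 6. Its part in the results was not tested. The targeted genes matched the labels, with JAK2 at 5.08 and 5.32 in its mutant against 6.14 to 6.81 in WT, and TNFRSF1A at 6.56 and 6.55 in its mutant against 9.23 to 9.72 in WT.

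The promoters of PRTN3, MS4A3 and ITGAM, the genes called in the unstimulated JAK2 mutant, are shown first, together with that of AZU1, the direct neighbour of PRTN3 that stayed at background. RefSeq entries were matched by symbol for 7 of the 10 genes, and those of MPO, ELANE and SPI1 were not matched. Each sequence is the 250 bases before the gene's start in GRCh38.p14, on the gene's strand, 5′ to 3′. Capitals mark every match, on either strand, to letters typical of a C/EBP site (TTNNGNAA), a PU.1 site (GAGGAA), a MYB site (AACNG) and a GATA site (AGATAA), which were chosen with the expression values known. Windows are chr19:840749-840998 for PRTN3, chr19:827587-827836 for AZU1, chr11:60056415-60056664 for MS4A3 and chr16:31259725-31259974 for ITGAM, all on the plus strand.
PRTN3: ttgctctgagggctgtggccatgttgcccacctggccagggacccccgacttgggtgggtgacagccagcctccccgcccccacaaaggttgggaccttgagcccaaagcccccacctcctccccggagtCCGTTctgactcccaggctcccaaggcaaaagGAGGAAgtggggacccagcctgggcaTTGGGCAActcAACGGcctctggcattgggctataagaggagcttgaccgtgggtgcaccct
AZU1: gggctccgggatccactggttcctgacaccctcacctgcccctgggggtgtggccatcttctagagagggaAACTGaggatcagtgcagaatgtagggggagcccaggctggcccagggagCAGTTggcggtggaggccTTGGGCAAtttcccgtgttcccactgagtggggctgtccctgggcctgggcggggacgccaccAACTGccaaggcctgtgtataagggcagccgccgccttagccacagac
MS4A3: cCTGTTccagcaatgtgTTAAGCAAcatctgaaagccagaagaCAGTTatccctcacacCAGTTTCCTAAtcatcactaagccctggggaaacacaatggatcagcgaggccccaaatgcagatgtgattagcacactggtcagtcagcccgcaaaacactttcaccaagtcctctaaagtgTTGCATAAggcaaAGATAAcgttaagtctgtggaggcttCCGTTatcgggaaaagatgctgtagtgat
ITGAM: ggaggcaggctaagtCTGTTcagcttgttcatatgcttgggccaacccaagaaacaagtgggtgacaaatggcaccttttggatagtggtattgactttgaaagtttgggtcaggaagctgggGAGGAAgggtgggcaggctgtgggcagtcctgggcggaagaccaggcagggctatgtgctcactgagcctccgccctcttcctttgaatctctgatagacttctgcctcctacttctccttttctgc

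PRTN3 held 1 C/EBP match that began 62 bases before the start, 1 PU.1 match at 88 and MYB matches at 120 and 51. AZU1 held the same 8 letters for C/EBP, TTGGGCAA, at 111 bases, no PU.1 match, and MYB matches at 179, 129 and 48. MS4A3 held C/EBP matches at 233, 188 and 68, MYB matches at 249, 207, 191 and 29, and the only GATA match among the 7 promoters, at 55. Its matches at 191 and 188 overlap and are printed as 1 run of capitals. ITGAM held 1 PU.1 match at 127 and 1 MYB match at 235. Of the promoters not printed, CTSG held 2 PU.1 and 1 MYB match, CEBPE 1 of each, and CEBPA none of the 4 motifs. Such short letters are common. Among 35116 RefSeq promoters of this length, 33.2% held the C/EBP letters, 23.6% the PU.1 letters, 70.6% the MYB letters and 9.17% the GATA letters. The matches therefore describe the letters only.

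**Figure D1:**
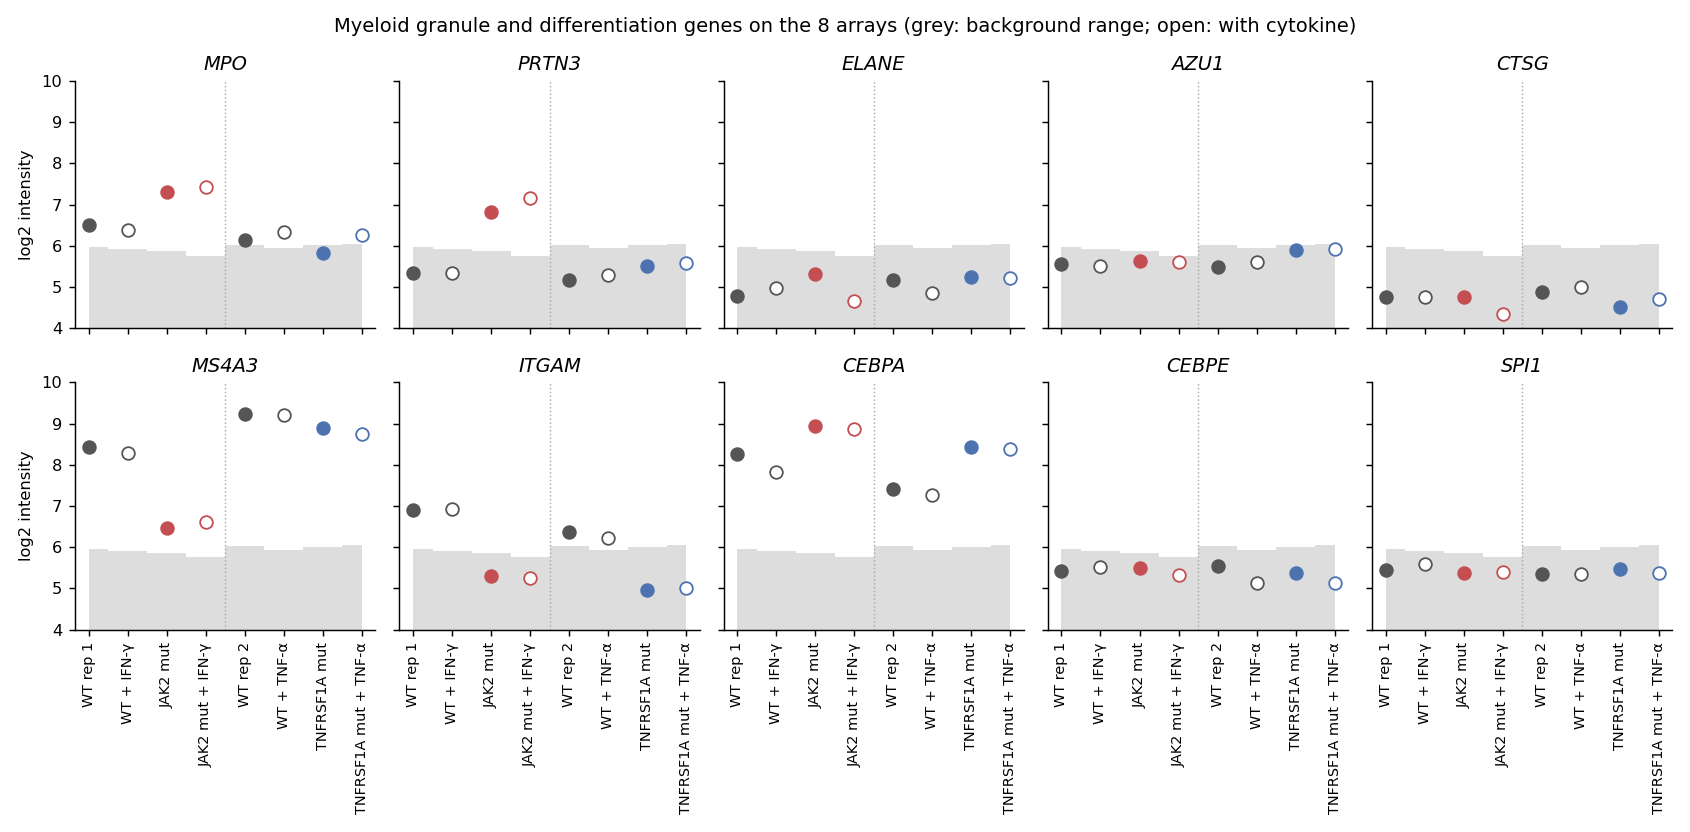
Log2 intensity of the 10 genes on each of the 8 arrays, 1 panel per gene and 1 point per array. Filled points are unstimulated and open points had cytokine, black is WT, red the JAK2 mutant and blue the TNFRSF1A mutant, and the grey area is the background range of each array. PRTN3 leaves the grey area only on the 2 JAK2 mutant arrays, MS4A3 drops to 6.47 and 6.61 on the same arrays, and ITGAM lies in the grey area on all 4 mutant arrays. The panels share a scale, but levels of different genes are not comparable.

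MPO encodes myeloperoxidase, the haem enzyme of azurophil granules that makes hypochlorous acid. Its brighter probe set read 6.51 in WT replicate 1 and 6.39 in its IFN-gamma sample, 7.29 in the JAK2 mutant and 7.43 in the JAK2 mutant with IFN-gamma. In the TNF-alpha experiment it read 6.14 in WT replicate 2, 6.34 in WT with TNF-alpha, 5.82 in the TNFRSF1A mutant and 6.25 in that mutant with TNF-alpha. The JAK2 mutant arrays were the highest of the 8, and the unstimulated TNFRSF1A mutant was the only array in the background range. MPO was higher in the JAK2 mutant by 0.78 without and by 1.04 with IFN-gamma, so that it passed 2-fold only between the arrays with cytokine (2.06-fold). The second MPO probe set was dimmer. It lay above background on 4 arrays and was also highest in the JAK2 mutant, at 6.33 and 6.32, against 5.74 to 6.14 in WT.

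PRTN3 encodes proteinase 3, a serine protease of the same granules and the target of the cytoplasmic antineutrophil antibodies of granulomatosis with polyangiitis. It read 5.35 in WT replicate 1 and 5.34 in its IFN-gamma sample, 6.81 in the JAK2 mutant and 7.17 in the JAK2 mutant with IFN-gamma. The TNF-alpha experiment gave 5.17 in WT replicate 2, 5.28 in WT with TNF-alpha, 5.51 in the TNFRSF1A mutant and 5.59 in that mutant with TNF-alpha. The JAK2 mutant arrays were thus the only ones with PRTN3 above background. The difference from WT was 1.46 without and 1.82 with IFN-gamma as measured. Because the WT values lay in the background range, these are known only to be at least 0.85 (1.80-fold) and at least 1.25 (2.39-fold).

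The other serine protease genes of the granule gave no level above background in either mutant. ELANE, the neutrophil elastase gene mutated in severe congenital neutropenia, read between 4.65 and 5.31 over the 8 arrays. AZU1, which encodes the antimicrobial azurocidin, read between 5.49 and 5.91, and CTSG, the cathepsin G gene, between 4.34 and 5.0. PRTN3 lies on chromosome 19 between AZU1 and ELANE, as direct neighbours in the RefSeq gene table, and CTSG lies on chromosome 14. In the JAK2 mutant the middle gene of that trio was therefore above background while the genes on either side were not.

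The gene that follows ELANE is CFD, which encodes complement factor D (adipsin), a serine protease of the alternative complement pathway. It was looked at because of its position, after values had been seen. CFD read 8.39 in WT replicate 1 and 8.32 in its IFN-gamma sample, 9.51 in the JAK2 mutant and 9.50 in the JAK2 mutant with IFN-gamma. It read 8.78 in WT replicate 2, 8.69 in WT with TNF-alpha, 9.25 in the TNFRSF1A mutant and 9.12 in that mutant with TNF-alpha. All 4 mutant arrays lay above all 4 WT arrays. Each mutant taken alone lay outside the WT arrays for 49.2% (JAK2) and 27.6% (TNFRSF1A) of all genes, and the joint share was not counted. CFD differed by 1.12 in the unstimulated JAK2 mutant, which passed 2-fold, where 2.13% of all genes did. The genes farther out (PTBP1 and PLPPR3 before AZU1, MED16 and R3HDM4 after CFD) stayed below 2-fold in the JAK2 mutant, as R3HDM4 did at 8.37 against 8.15 in WT replicate 1.

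**Figure D2:**
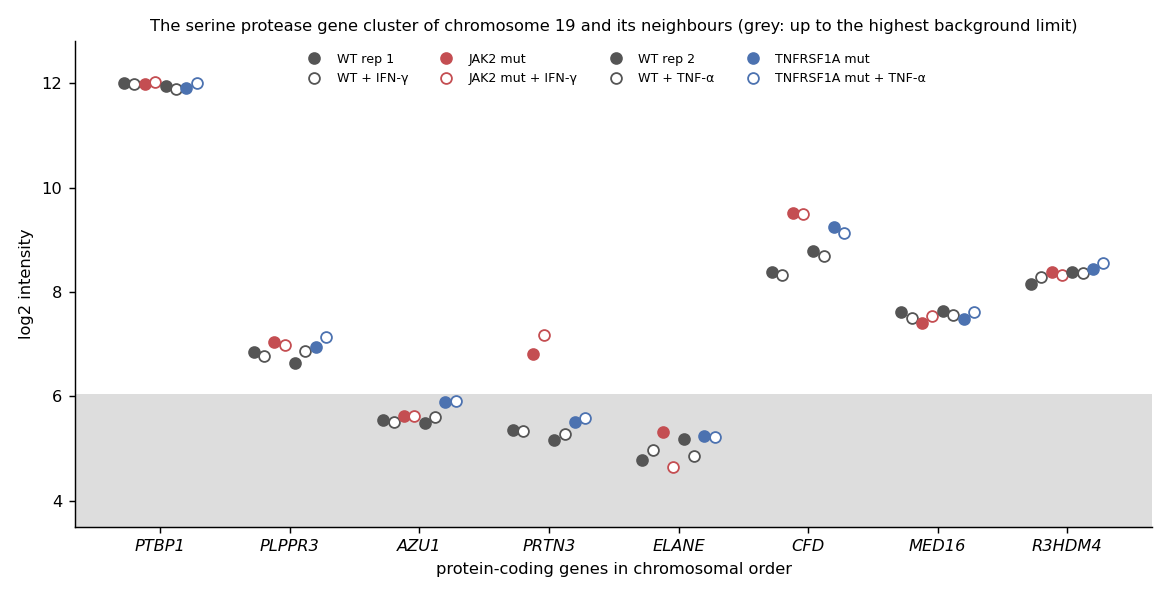
Log2 intensity on the 8 arrays of AZU1, PRTN3 and ELANE and their protein-coding neighbours, in chromosomal order, with filled points for unstimulated samples and open points for those with cytokine. Grey marks values up to 6.04, the highest background limit. PRTN3 of the JAK2 mutant stands out of the grey band at 6.81 and 7.17, between AZU1 and ELANE inside it, and CFD reads higher on the 4 mutant arrays than on the 4 WT arrays.

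MS4A3 went the opposite way to MPO and PRTN3. Its intensity was 343 in WT replicate 1 and 312 in its IFN-gamma sample, and 88.7 and 97.4 in the JAK2 mutant without and with IFN-gamma. In the TNF-alpha experiment it was 601 in WT replicate 2, 588 in WT with TNF-alpha, 472 in the TNFRSF1A mutant and 430 in that mutant with TNF-alpha. Of the 6 genes grouped as granule genes it was the only 1 above background on all 8 arrays. The JAK2 mutant arrays lay far below the other 6 arrays. On the log2 scale the JAK2 mutant differed from WT by -1.95 without and by -1.68 with IFN-gamma. In the TNFRSF1A mutant the difference was -0.35 without and -0.45 with TNF-alpha. That is close to the spread of 0.38, and against WT replicate 1 it had the other sign, at 0.46.

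ITGAM encodes CD11b, the alpha chain of the integrin Mac-1 that is used as a maturity marker of granulocytes and monocytes. Its brightest probe set read 6.91 in WT replicate 1 and 6.92 in its IFN-gamma sample, 6.38 in WT replicate 2 and 6.21 in WT with TNF-alpha. The JAK2 mutant read 5.30 and, with IFN-gamma, 5.25, and the TNFRSF1A mutant read 4.96 and, with TNF-alpha, 5.01. All 4 WT arrays were above background and all 4 mutant arrays were in the background range. The measured differences of -1.61 in the JAK2 mutant and -1.42 in the TNFRSF1A mutant are therefore known only to be at least 1.05 (2.07-fold) and at least 0.37 (1.29-fold) in size. The second ITGAM probe set was above background only in WT replicate 1, at 6.08, and read 4.79 in the JAK2 mutant, and the third was in the background range on every array. The beta chain that pairs with CD11b, ITGB2 (CD18), differed by less than 2-fold in both mutants. It was lower in the JAK2 mutant, at 8.84 against 9.22 in WT replicate 1. In the TNFRSF1A mutant it was not lower, at 9.66 against 9.59 in WT replicate 2.

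Among the factors, only CEBPA gave a signal above background. CEBPA read 8.26 in WT replicate 1 and 7.83 in its IFN-gamma sample, 8.94 in the JAK2 mutant and 8.87 in that mutant with IFN-gamma. It read 7.43 in WT replicate 2, 7.27 in WT with TNF-alpha, 8.44 in the TNFRSF1A mutant and 8.37 in that mutant with TNF-alpha. All 4 mutant arrays lay above all 4 WT arrays, though the distance from the TNFRSF1A mutant to WT replicate 1 was only 0.18. Such a gap was common for each mutant alone, at 49.2% of all genes for JAK2 and 27.6% for TNFRSF1A, in either direction. Against the WT of its own experiment the TNFRSF1A mutant was higher by 1.01 (2.02-fold) without and by 1.11 with TNF-alpha. The JAK2 mutant was higher by 0.69 without and by 1.04 with IFN-gamma. CEBPE ranged from 5.12 to 5.53 and SPI1 from 5.34 to 5.58 over the 8 arrays, all in the background range, so neither the PU.1 gene nor the later C/EBP factor could be compared between genotypes by its single probe set.

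Set side by side, the 6 granule genes (MPO, PRTN3, ELANE, AZU1, CTSG and MS4A3) had a median difference of 0.30 in the JAK2 mutant, -0.12 in the TNFRSF1A mutant and 0.03 between the 2 WT arrays. Over CEBPA, CEBPE and SPI1 it was 0.09, 0.12 and -0.09, and over all compared genes 0.03, 0.04 and -0.04. With 3 of the 6 granule genes and 2 of the 3 factors in the background range on all 8 arrays, these medians rest largely on background readings. Gene by gene, the JAK2 mutant differed by 0.78 for MPO and -1.95 for MS4A3, beside 0.69 for CEBPA. The TNFRSF1A mutant differed by -0.32 for MPO, with its own value in the background range, and by -0.35 for MS4A3, beside 1.01 for CEBPA. Which mutant had the larger CEBPA difference turned with the control. Against the WT array of the other experiment it was 1.52 in the JAK2 mutant and 0.18 in the TNFRSF1A mutant.

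The 5 genes above the level filter were MPO, PRTN3, MS4A3, ITGAM and CEBPA. PRTN3 passed it only through the JAK2 mutant arrays and ITGAM only through the WT arrays, so these genes had to differ and their calls are a description. In the unstimulated JAK2 mutant 3 of the 10 genes were called (PRTN3, MS4A3 and ITGAM), where 2.13% of all compared genes were, 220 of them lower and 26 higher. MS4A3 was thus the 1 called gene there that passed the filter in both genotypes. Between the JAK2 mutant and WT with IFN-gamma MPO, MS4A3 and CEBPA passed 2-fold beside PRTN3 and ITGAM, where 3.02% of all genes did. PRTN3, MS4A3 and ITGAM were called in the same direction without and with IFN-gamma, where 1.78% of all genes were. In the TNFRSF1A mutant CEBPA and ITGAM were called, where 0.98% of genes were. Both passed between the arrays with TNF-alpha, where 1.22% did, and both were called in each pair, where 0.737% were. Not overlapping is a much weaker reading. Both JAK2 mutant arrays lay outside all 4 WT arrays for these 5 genes and for 49.2% of all genes, and both TNFRSF1A mutant arrays did for PRTN3, ITGAM and CEBPA and for 27.6% of all genes. For PRTN3 the TNFRSF1A mutant and WT arrays were all in the background range, so that gap is no measured difference.

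**Figure D3:**
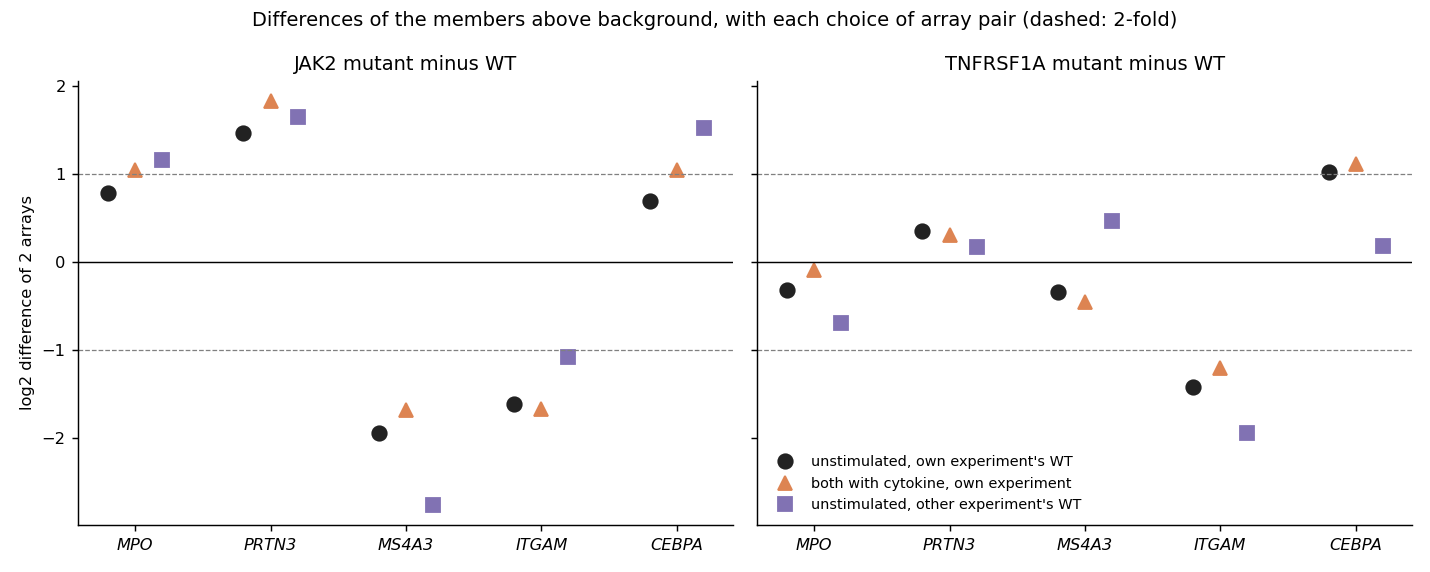
Log2 difference of mutant minus WT for the 5 genes above the level filter, in the JAK2 mutant on the left and the TNFRSF1A mutant on the right. Circles compare unstimulated arrays within the experiment, triangles the arrays with cytokine, squares the unstimulated mutant with the WT array of the other experiment, and dashed lines mark 2-fold. The 3 readings of each gene keep their sign in the JAK2 mutant, and MS4A3 changes sign between them in the TNFRSF1A mutant. Values with a background reading are drawn as measured.

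A test was made by pooling each mutant's arrays, for the 3 genes with a value above background in every genotype (MPO, MS4A3 and CEBPA). In a limma fit of genotype with the experiment as a block, a mutant's arrays without and with cytokine stand as repeats of that mutant, so its p-values measure the spread between arrays of 1 line and not between independently made lines. JAK2 mutant values were 0.91 ± 0.14 (SE) for MPO with an adjusted p of 0.00443, -1.81 ± 0.08 for MS4A3 with 1.74e-05 and 0.86 ± 0.13 for CEBPA with 0.00389. These 3 passed, where 28.6% of all genes did. In the TNFRSF1A mutant CEBPA (1.06 ± 0.13, limma adjusted p of 0.00481) and MS4A3 (-0.40 ± 0.08, 0.0259) passed, where 10.2% of genes did. Both rest on the WT arrays of the TNF-alpha experiment, as the values against WT replicate 1 given above show. MPO, in the background range on 1 of the 2 TNFRSF1A mutant arrays, did not pass there, at -0.20 ± 0.14 with a limma adjusted p of 0.393. No test is given for PRTN3 and ITGAM.

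The same fit tested whether the mutants differed from each other, each against the WT arrays of its own experiment. MPO differed by 1.12 ± 0.20 (limma adjusted p of 0.0113) and MS4A3 by -1.42 ± 0.11 (0.000461). These 2 genes passed, where 19.9% of all genes did. CEBPA, at -0.20 ± 0.19 with a limma adjusted p of 0.496, did not pass. A fit of the 7 conditions, whose only residual degree of freedom is the WT pair, called 0 of the 3 genes in either mutant, where it called 0.165% of all genes in the JAK2 mutant and 0.0434% in the TNFRSF1A mutant. Its limma adjusted p in the JAK2 mutant ran from 0.205 for MS4A3 to 0.765 for CEBPA. Unadjusted p-values of this fit are not read, because the share of all genes under the same cut was not counted.

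The WT controls themselves differed in these genes. Between WT replicate 2 and WT replicate 1, MS4A3 was higher by 0.81 and CEBPA differed by -0.83, each over 2 times the spread of 0.38. That spread is taken over all compared genes from this same pair and is not the error of a single gene. ITGAM differed by -0.53 and MPO by -0.37. None of the 10 genes passed 2-fold, where 1.99% of all genes did. The labels do not tell if these WT samples are separate cultures. The genotype differences above were read against the WT of the same experiment.

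None of the 10 genes was read as 2-fold different after 6 hours with either cytokine. ELANE, AZU1, CTSG, CEBPE and SPI1 lay in the background range on all arrays, so a response of theirs could not be measured. The same holds for PRTN3 in WT and the TNFRSF1A mutant, and for ITGAM in both mutants. In WT with IFN-gamma the 5 genes above the level filter differed by -0.42 for CEBPA, -0.14 for MS4A3, -0.12 for MPO, -0.01 for PRTN3 and 0.01 for ITGAM, and 0.607% of all genes were called. In WT with TNF-alpha they differed by 0.21 for MPO, -0.16 for both ITGAM and CEBPA, 0.11 for PRTN3 and -0.03 for MS4A3, and 0.321% of all genes were called. The mutants had 0% of genes called in response to their cytokine. Their largest differences among these genes were 0.35 for PRTN3 in the JAK2 mutant and 0.43 (at least 0.24) for MPO in the TNFRSF1A mutant, close to the spread. The genes called in a mutant were PRTN3, MS4A3 and ITGAM in the JAK2 mutant and ITGAM and CEBPA in the TNFRSF1A mutant. Their measured genotype differences had to exceed these cytokine responses, since the call was at 2-fold and no response reached it. No result is drawn from that order.

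Other genes of granulocyte maturation were mostly silent as well. Of 30 listed genes of granule content and maturation 27 were measured, and 19 of them stayed in the background range on all 8 arrays, among them BPI and DEFA4 of the primary granule, LTF, LCN2 and CAMP of the secondary granule, MMP8 and MMP9, and S100A8 and S100A9. The 8 above the level filter had median differences of 0.08 in the JAK2 mutant and -0.06 in the TNFRSF1A mutant, and 0 of them passed 2-fold in either. LYZ (lysozyme) read 8.65 in WT replicate 1 and 9.29 in the JAK2 mutant, and SERPINB1, an inhibitor of elastase and proteinase 3, read 10.23 and 10.65. CST7, which encodes the protease inhibitor cystatin F, read 8.42 and 7.84. CTSC, the protease that activates the granule serine proteases, read 11.55 and 11.77.

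Of 21 listed myeloid transcription factors 19 were measured and 15 passed the level filter. CEBPA in the TNFRSF1A mutant was the only one called in an unstimulated mutant, and the median differences were -0.02 in the JAK2 mutant and 0.06 in the TNFRSF1A mutant. IRF8 and KLF4, factors of the monocyte branch, were in the background range on all 8 arrays, like SPI1 and CEBPE. CEBPB, the C/EBP member of emergency granulopoiesis, read 9.60 in WT replicate 1 and 8.84 in the JAK2 mutant, and 10.02 and 10.08 in WT replicate 2 and the TNFRSF1A mutant. MYB stayed between 11.20 and 11.85 on all arrays. GATA2, a factor of early progenitors, mast cells and basophils, was the 1 listed factor called between the WT arrays, with 11.30 in WT replicate 1 and 12.34 in WT replicate 2.

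Of 18 listed receptors 17 were measured and 13 passed the level filter, and in the JAK2 mutant 3 were lower by 2-fold and 0 higher, with a median of -0.38. Calls in that comparison were mostly lower over all genes too, as given above. Besides ITGAM these were the common beta chain of the IL-3, IL-5 and GM-CSF receptors, CSF2RB, which read 8.24 in WT replicate 1 and 7.02 in the mutant, and the IL-3 receptor alpha chain, IL3RA, at 8.73 and 7.57. Both belong to receptors that signal through JAK2. With IFN-gamma on both sides IL3RA differed by -1.49, while CSF2RB read 8.36 in WT and 7.50 in the mutant, below 2-fold. In the TNFRSF1A mutant the median was 0.08, with ITGAM lower and FCGR1A, the high-affinity IgG receptor, higher at 8.19 against 7.11. Unstimulated WT replicate 1 read 8.10 for FCGR1A, close to the TNFRSF1A mutant, so this call rests on WT replicate 2. FCGR1A also rose with IFN-gamma in WT, from 8.10 to 9.80. FLT3, a receptor of early progenitors, read 7.67 in the TNFRSF1A mutant and 6.68 in WT replicate 2, just short of 2-fold. It passed 2-fold between the arrays with TNF-alpha, at 7.66 in the mutant and 6.48 in WT. It also did against unstimulated WT replicate 1, which read 6.55.

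**Figure D4:**
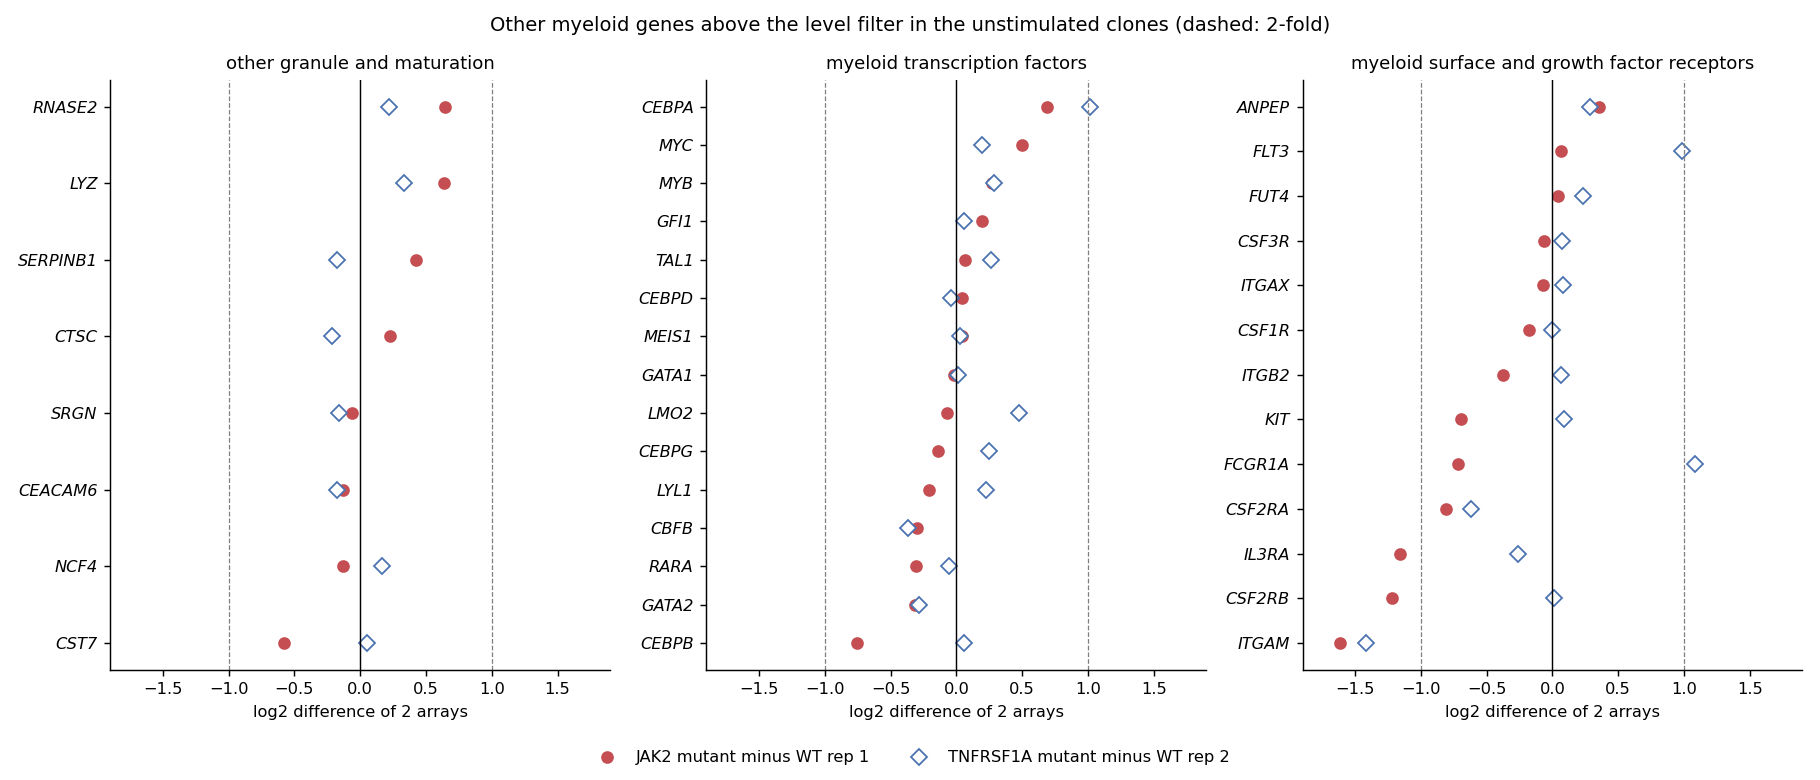
Log2 difference of 2 arrays for the genes of 3 lists that passed the level filter, with the unstimulated JAK2 mutant against WT replicate 1 as filled red circles and the unstimulated TNFRSF1A mutant against WT replicate 2 as open blue diamonds. Dashed lines mark 2-fold. None of the 8 other granule and maturation genes lies outside them, CEBPA of the TNFRSF1A mutant is the only factor that does, and 3 receptors of the JAK2 mutant lie below them.

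Markers of other blood cells were read beside these results, since in bulk RNA a change in the share of cells and a change of RNA per cell cannot be told apart. Of 12 erythroid markers 8 were measured, with 5 in the background range on all 8 arrays. The log2 of the summed intensity of the 8, called the sum below, was 14.02 in WT replicate 1 and 13.96 in the JAK2 mutant. It was 13.93 in WT replicate 2 and 13.71 in the TNFRSF1A mutant. Most of the intensity came from the transferrin receptor gene TFRC. Of 8 megakaryocyte markers 7 were measured with 3 in the background range, and the sums in the same order were 8.66, 8.61, 8.80 and 8.67. Of 6 mast cell and basophil markers only 3 were measured. CPA3 and FCER1A were in the background range on all arrays, and the sums were 6.75, 6.36, 7.11 and 6.75. HDC, the third of them, read 5.60 in WT replicate 1 and 5.20 in the JAK2 mutant, both in the background range. Of 5 B cell markers 4 were measured with MS4A1 in the background range, and the sums were 9.68, 9.60, 9.85 and 9.82. All 6 T and NK cell markers were measured, CD3E, CD3G and CD2 were in the background range on all arrays, and the sums were 10.15, 9.72, 10.50 and 9.77. CD3D was the 1 marker of these lists called, at 8.74 in the TNFRSF1A mutant against 9.90 in WT replicate 2. The part of these markers in the granule gene differences was not tested.

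The profiles of the members over the 8 arrays were also compared with those of 1458 genes that ranged over at least 1 log2 unit. These are descriptions over arrays that share cell lines and controls. MPO and PRTN3 ran together (Pearson r of 0.90), and MS4A3 ran against both, with r of -0.93 and -0.94, which mostly restates the gap between the JAK2 mutant and the other arrays. MS4A3 had the larger range, 2.76 against 1.61 for MPO, and the genes nearest to the mean profile of both were SMAD7, TMOD1, PHACTR1, S100P and HBEGF, each with r of 0.97. S100P read 8.51 in WT replicate 1, 7.25 in the JAK2 mutant, 8.81 in WT replicate 2 and 8.11 in the TNFRSF1A mutant. Taken singly, a choice made after values were seen, the nearest gene was TRAM1L1 for MPO (r of 0.99), VSIG4 for PRTN3 (0.99), KIF21B for MS4A3 (1.00), IGF2BP1 for ITGAM (0.98) and THNSL1 for CEBPA (0.99). None of the other listed granule and maturation genes was among the 3 nearest to any of them, but most could not be. They lay in the background range or ranged over less than 1 log2 unit, so nothing is drawn from their absence.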

How the data were processed

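Total RNA of 8 KBM7 samples was amplified, biotin-labelled and read on Affymetrix PrimeView arrays, which have 1 colour, per the labels' protocols. The deposited values are the authors' normalised intensity per probe set, for which the submitters' processing notes name RMA and Affymetrix Expression Console 1.1. That they stand on a linear scale was inferred from the values, and log2 of the deposited intensity was taken here with no pseudocount, the lowest value being 6.72. RMA equalises the arrays' distributions and compresses differences of dim probe sets. No column belonged to no sample, and the genome build of the annotation is not given in the sources used here.

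Of 49395 probe sets, 44994 named 1 gene in the platform annotation, 1832 several and 2569 were unlisted. Symbols were updated through RefSeq (GRCh38.p14). A gene took its probe set with the highest mean, and 11529 genes with a log2 level of at least 6 were compared as differences of 2 arrays, called at 2-fold. Alternatives were limma 3.58.1 in R 4.3.3, with Benjamini-Hochberg adjustment at 0.05 and checked on simulated data, other fold thresholds and level filters, loess (span 0.3), a further quantile normalization, other probe set rules and the other WT array. Members, lists and comparisons were chosen with earlier results of these data known. Named genes were all members, up to 4 genes of each further list past 2-fold in an unstimulated mutant, and the 5 genes nearest in profile to the granule genes above background on at least 4 arrays. Other genes with values, among them LYZ, SERPINB1, CST7, CTSC, CEBPB, MYB, GATA2, FLT3, ITGB2, S100P and the neighbours of PRTN3, were chosen after their values were seen. The bound for values in the background range, the test of the difference between the mutants, the limit of tests to members above background in every genotype and the single-gene profiles were added after the data were seen.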

Additional observations from a re-analysis of the deposited data

Results flagged for a closer look

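The 2 mutant lines differed in their difference from WT for MPO and MS4A3. This was the contrast of both mutant effects in the limma fit of genotype, which 19.9% of all genes passed. MPO differed by 1.12 (adjusted p of 0.0113), with both JAK2 mutant arrays above all 4 WT arrays and the unstimulated TNFRSF1A mutant below them, in the background range. MS4A3 differed by -1.42 (limma adjusted p of 0.000461), with both JAK2 mutant arrays below all 4 WT arrays. Both JAK2 mutant arrays lay outside all 4 WT arrays for 49.2% of all genes. Each mutant is 1 line, and genotype cannot be told apart from other differences between the lines.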

How the results depend on the processing

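MS4A3 and ITGAM in the JAK2 mutant and ITGAM in the TNFRSF1A mutant kept their sign under the alternatives run, while their sizes moved. With WT replicate 2 as control the JAK2 mutant differed by -2.76 for MS4A3, -1.08 for ITGAM and 1.52 for CEBPA. With WT replicate 1 as control the TNFRSF1A mutant differed by 0.18 for CEBPA, which ends the 2-fold call, by 0.46 for MS4A3 and by -1.95 for ITGAM. With the mean of all probe sets ITGAM differed by -1.03 in the JAK2 mutant and -0.87 in the TNFRSF1A mutant. Raising background values to the limit left PRTN3 at 0.85 and ITGAM in the TNFRSF1A mutant at -0.37, below 2-fold.

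The median of the granule genes in the JAK2 mutant, 0.30, became -0.10 with background values raised to the limit and -0.10 between the arrays with IFN-gamma. In the TNFRSF1A mutant, -0.12 became 0.26 with WT replicate 1 as control. The cause of the other changes was not tested.

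Counts of called genes moved by over 1.5 times as follows. For the unstimulated JAK2 mutant, 246 genes became 710 at 1.5-fold, 104 at 3-fold, 140 with a level filter at 8, 156 with the mean of all probe sets, 755 with the other WT array, 19 in the limma fit of the 7 conditions and 3298 in the limma fit of genotype. For the TNFRSF1A mutant, 113 became 442, 44, 62, 61, 196, 5 and 1176 under the same settings. Between the WT arrays, 229 became 1289 at 1.5-fold, 24 at 3-fold and 116 with the mean of all probe sets. For WT with IFN-gamma, 70 became 175 at 1.5-fold, 28 at 3-fold, 271 with the other WT array and 1 in the limma fit of the 7 conditions. For WT with TNF-alpha, 37 became 135 at 1.5-fold, 15 at 3-fold, 243 with the other WT array, 58 with the mean of both and 1 in that fit. The mutants' counts of 0 became 44 for the JAK2 mutant and 5 for the TNFRSF1A mutant at 1.5-fold. Among MPO, PRTN3, MS4A3, ITGAM and CEBPA, no value called at 2-fold changed its sign under the alternatives run. Signs of the other called genes were not compared. The WT pair has no value in the limma fits, which use it as residual.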
